A study of Mus musculus with 20 samples.

Results

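The genes described here encode the core of the mouse Polycomb complexes and the DNA methyltransferases. Ezh2 and Ezh1 are the alternative catalytic subunits of Polycomb repressive complex 2 (PRC2), Suz12 and Eed are its structural partners, and Bmi1 is a subunit of Polycomb repressive complex 1 (PRC1). Dnmt1, Dnmt3a and Dnmt3b are DNA methyltransferases. A probe set was counted as a member where the platform annotation gives it exactly 1 symbol and that symbol is one of these. The rule found 8 genes of 19607 on the array, with 162 of the 167016 probe sets that name 1 gene. Dnmt1 has 40 of them, Dnmt3a 28, Ezh1 23, Ezh2 21, Suz12 and Dnmt3b 16 each, Eed 12 and Bmi1 6.

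PRC2 places methyl groups on a lysine in the tail of a core histone, and PRC1 adds ubiquitin to another core histone, both of which go with silent chromatin. Dnmt1 copies methylation onto the new DNA strand after replication, while Dnmt3a and Dnmt3b can methylate DNA that carried no mark. In the thymus, EZH2 and BMI1 are known for keeping the Cdkn2a locus silent in early T cell precursors, PRC2 genes are recurrently mutated in human T cell leukaemia, and EZH2 and DNMT1 are typically abundant in dividing cells while EZH1 is typical of resting ones.

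Expression was measured on 20 arrays, 10 of thymocytes (developing T cells) and 10 of tumours, all labelled as strain C57BL/6, with the aim of finding what loss of Gfi1 changes. The Gfi1 protein represses transcription in blood stem cells and developing T cells. Tumours of Notch transgenic mice given the mutagen ENU (Notch tumours) had 2 arrays labelled Gfi1 KO and 2 labelled WT, and tumours after ENU without that transgene (ENU tumours) had 3 and 3. Irradiated thymocytes had 3 KO and 3 WT arrays, and untreated thymocytes 2 and 2. Tumour mice of both labels carried a floxed Gfi1 gene (Gfi1f/f) and received pIpC, which also induces interferon, once ultrasound showed a mass. In those labelled KO, pIpC switches on the Mx1Cre transgene, which acts in blood and several other tissues, with tumour cells explanted weeks afterwards. The labels name the Notch transgene as Notch1-CT in the transformed cells. For thymocytes, the sources used here state neither the KO allele nor the dose of radiation and the time after it. Whether arrays of 1 group stem from different mice is not stated, and the spread behind each p-value may thus be technical. Values are log2 signal, and folds assume that base.

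The labels were checked first. All 11 thymocyte markers found lay above the 40th percentile of the array on each thymocyte array, and 8 to 11 of them did so in tumours. Gfi1 itself was lower in untreated KO thymocytes at its probe set 2 by a log2 difference of -6.31 (adjusted p = 8.92e-09), and at the same probe set in KO Notch tumours by -4.51 (adjusted p = 0.046). Probe sets 1, 5 and 7 of Gfi1 were higher in untreated KO thymocytes. In irradiated KO thymocytes probe sets 4 to 8 of Gfi1 were lower and 1 to 3 were higher than in WT, a pattern unlike that of untreated KO thymocytes. Comparisons of irradiated with untreated KO thymocytes thus cannot tell irradiation apart from this difference between the groups. The same holds for the difference in response between the genotypes. Where a gene is said below to rise or fall with irradiation in KO, the words name this comparison alone. In ENU tumours labelled KO no Gfi1 probe set passed the test (smallest adjusted p 0.447), so KO is there the label alone. Where the probe sets lie relative to the deleted part was not known.

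KO Notch tumour 2 stood apart. Its mean log2 signal over 6 B cell markers was 12.67, against 8.23 in KO Notch tumour 1 and 7.85 and 8.61 in WT Notch tumours. Over 11 thymocyte markers it had 9.15, against 11.63 in KO Notch tumour 1 and 10.66 and 12.27 in WT Notch tumours. It also had the lowest mean of the 17 cycling cell genes found, 10.30, and the correlation of its array with its group partner, 0.87, was the lowest within any group. KO ENU tumour 1 was next lowest for cycling cell genes (10.47) and had the highest mean over 8 macrophage and dendritic cell markers (10.85). For Ezh2, Suz12, Dnmt1 and Dnmt3a, the KO against WT difference in Notch tumours is given with and without KO Notch tumour 2. Most other results of KO Notch tumours include that array. Differences in ENU tumours are given with KO ENU tumour 1 included. In bulk RNA, fewer cells of a type and less RNA per cell cannot be told apart.

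The promoters of the members were read from RefSeq (GRCm38.p6), as 300 bases reaching from 250 before the start of transcription to 50 from it on. The sequences of Ezh2, Suz12, Dnmt1 and Ezh1 are shown. Those shown of Ezh2, Suz12 and Dnmt1 hold an E2F word, defined next, and that of Ezh1 holds none. Capitals mark E2F words, the letters TTTCCCGC, TTTGGCGC, TTTCGCGC or TTTGCCGC on either strand, which are bound by factors that switch on genes of DNA replication. Of 32851 mouse promoters of the same length 2.26% hold such a word.
Ezh2, chr6:47594981-47595280, minus strand: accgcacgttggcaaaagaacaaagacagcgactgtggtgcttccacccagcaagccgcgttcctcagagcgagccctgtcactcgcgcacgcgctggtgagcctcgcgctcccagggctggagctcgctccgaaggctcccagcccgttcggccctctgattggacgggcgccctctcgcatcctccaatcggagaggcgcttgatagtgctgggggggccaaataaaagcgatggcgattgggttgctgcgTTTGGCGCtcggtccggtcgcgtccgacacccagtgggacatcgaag
Suz12, chr11:79992856-79993155, plus strand: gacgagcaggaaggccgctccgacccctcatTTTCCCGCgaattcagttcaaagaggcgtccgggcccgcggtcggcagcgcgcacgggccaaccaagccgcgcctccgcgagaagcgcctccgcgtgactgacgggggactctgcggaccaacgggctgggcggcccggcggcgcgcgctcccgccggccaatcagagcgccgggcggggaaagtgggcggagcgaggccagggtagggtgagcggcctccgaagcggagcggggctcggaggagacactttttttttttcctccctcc
Dnmt1, the third of 3 annotated starts, chr9:20952574-20952873, minus strand: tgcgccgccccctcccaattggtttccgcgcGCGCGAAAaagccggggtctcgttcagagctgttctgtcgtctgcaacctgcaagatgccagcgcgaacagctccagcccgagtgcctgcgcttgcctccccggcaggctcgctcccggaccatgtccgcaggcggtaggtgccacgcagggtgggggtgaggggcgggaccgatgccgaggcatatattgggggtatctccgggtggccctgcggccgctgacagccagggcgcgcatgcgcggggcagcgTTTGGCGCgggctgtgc
Ezh1, chr11:101226414-101226713, minus strand: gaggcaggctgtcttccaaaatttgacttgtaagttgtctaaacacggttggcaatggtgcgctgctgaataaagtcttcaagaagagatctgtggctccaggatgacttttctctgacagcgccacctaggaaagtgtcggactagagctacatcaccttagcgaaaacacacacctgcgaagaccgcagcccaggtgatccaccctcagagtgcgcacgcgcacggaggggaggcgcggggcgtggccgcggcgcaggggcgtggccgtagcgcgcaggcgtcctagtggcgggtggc
The Ezh2 promoter has 1 word, beginning at base 3 where the start is counted as 0, and that of Suz12 has 1, beginning at base -219. The third Dnmt1 promoter has 2, beginning at bases -219 and 33, and its other annotated promoters have none. None was found in these windows of Ezh1, Eed, Bmi1, Dnmt3a or Dnmt3b, and no 2 words overlap. The letters AATCAC, the core of the sequence GFI1 binds, occur on either strand in 10.4% of mouse promoters and in none of the windows of the 8 genes. CpG, the dinucleotide that DNA methyltransferases act on, occurs 31 times in the promoter of Ezh2, 41 in Suz12, 23 in Ezh1 and Bmi1, 17 in Eed and 30 in Dnmt3b, and 46, 47 and 18 times in the 3 promoters of Dnmt3a. The Dnmt1 promoters have 2, 12 and 33, against a median of 7 and an upper quartile of 20 over all mouse promoters. These matches describe the sequences only. The annotated genes of Ezh2, Dnmt3a and Dnmt3b reach further upstream than the starts used here, to chr6:47595270, chr12:3801559 and chr2:153649411. Promoters at those ends were not read.

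**Figure D1:**
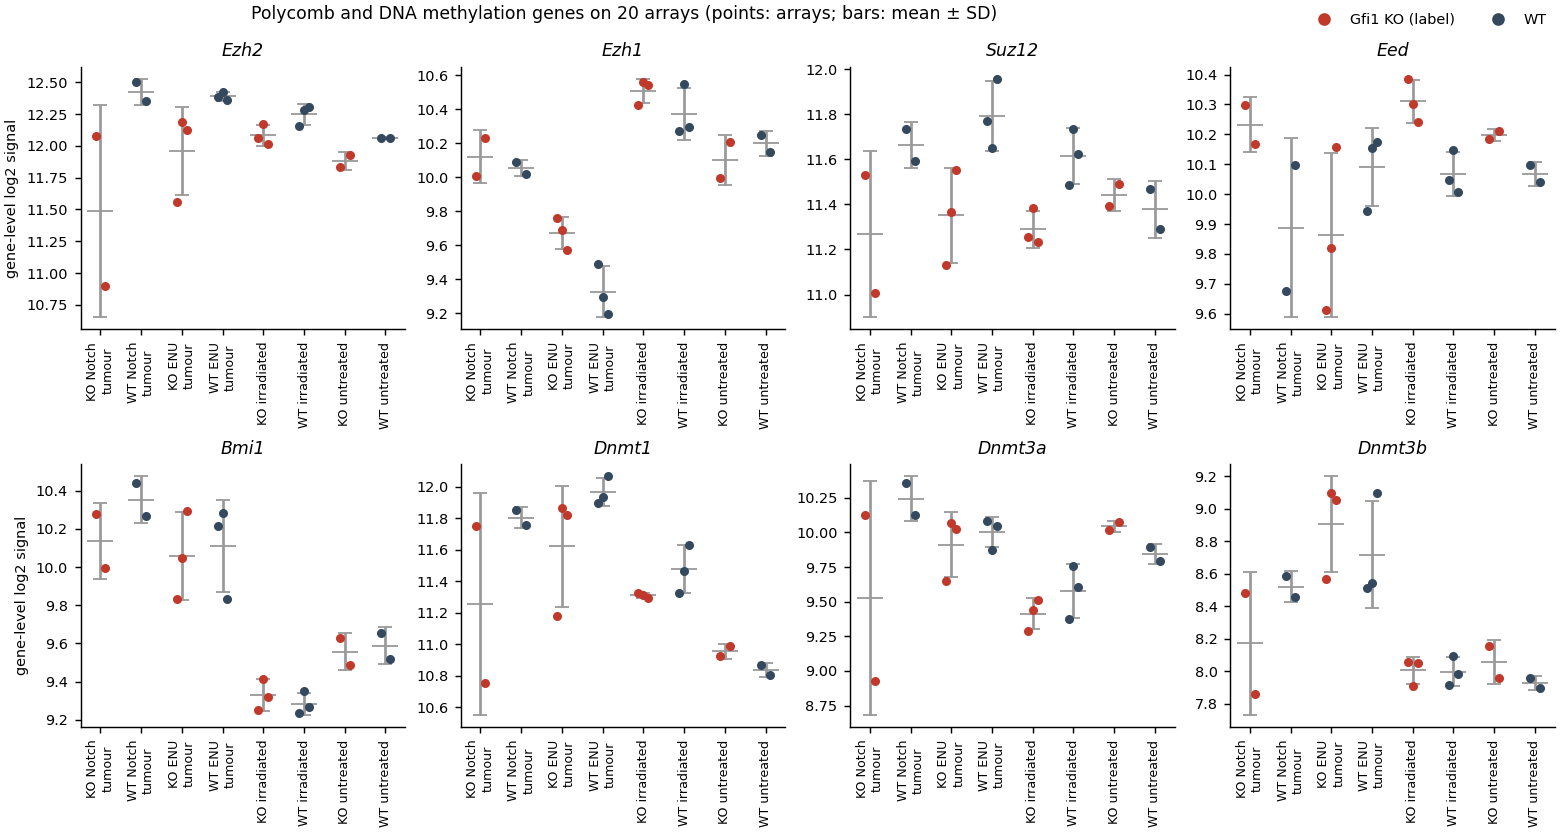
Gene-level log2 signal (vertical axes, a different scale in each panel) of the 8 genes in the 8 groups, with 1 point per array, KO in red and WT in blue; bars are the mean and SD of 2 or 3 arrays. Dnmt1, Bmi1 and Dnmt3b stood higher in most tumours than in untreated thymocytes, Ezh1 was lowest in ENU tumours, and KO Notch tumour 2 was the lowest of 20 arrays for Ezh2, Suz12, Dnmt1, Dnmt3a and Dnmt3b.

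The number of members called varied with the comparison, as did that of all genes. Between KO and WT untreated thymocytes 0 of 8 members passed an adjusted p of 0.05, where 12.3% of the 12747 genes tested did. At an unadjusted p of 0.05 there were 0 members and 23.4% of genes. In irradiated thymocytes 1 of 8, Suz12, was lower in KO, against 14.9% of genes. None passed between KO and WT ENU tumours, where 0% of 13025 genes were called, nor between KO and WT Notch tumours, where 0.0154% were. In ENU tumours 2 members and 13.7% of genes had an unadjusted p below 0.05. In Notch tumours 1 member and 5.99% of genes had such a p. Irradiated and untreated thymocytes differed in 2 of 8 members in WT (34.6% of genes) and in 3 of 8 in KO (38.8% of genes). The difference between these responses passed for 0 of 8 members and for 1.88% of genes. Its unadjusted p was below 0.05 for 2 members and 12.8% of genes. In WT mice, ENU tumours differed from untreated thymocytes in 4 of 8 members (20.1% of 13520 genes) and Notch tumours in 2 of 8 (7.68% of genes). Notch and ENU tumours differed in 0 of 8 members in WT (0.023% of genes) and in 0 of 8 in KO (0.107%). At an unadjusted p below 0.05 there were 1 member and 7.42% of genes in WT and 2 members and 7.01% of genes in KO. The KO effect did not pass as different between tumour types for any member or any gene (0% of genes). Here 0 members and 7.17% of genes had an unadjusted p below 0.05. The members' shares were near or below the background in thymocytes and above it in WT tumours, on counts of 8 genes.

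Markers of other cell types moved with these comparisons, and their part in the members' values was not tested. In KO against WT untreated thymocytes the mean of 4 erythroid and megakaryocyte markers was 9.91 to 10.05 against 7.49 to 7.53 (4 of 4 higher), that of 7 NK and gamma delta T cell markers 9.26 to 9.29 against 8.05 to 8.07 (5 of 6 tested higher), and that of 8 granulocyte markers 6.85 to 6.91 against 9.06 to 9.21 (7 lower). Macrophage and dendritic cell markers were higher for 5 of 7 and B cell markers for 3 of 6. In KO against WT irradiated thymocytes, the comparison in which Suz12 passed, macrophage and dendritic cell markers had 8.72 to 8.97 against 7.78 to 7.87 (6 of 7 higher), and erythroid and megakaryocyte markers 8.28 to 8.60 against 7.29 to 7.46 (4 of 4 higher). There the NK and gamma delta T cell markers were higher for 4 of 6, B cell markers were higher for 4 and lower for 1 of 6, granulocyte markers were lower for 7 of 8 (median -0.80), and thymocyte markers were lower for 2 of 11.

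With irradiation, B cell markers had 8.59 to 8.77 in irradiated KO against 9.66 to 9.71 in untreated KO thymocytes, and 8.17 to 8.40 in irradiated WT against 9.06 to 9.28 in untreated WT thymocytes. All 6 B cell markers fell in each genotype, as did 6 of 7 macrophage and dendritic cell markers tested and 6 of 11 thymocyte markers (medians of the thymocyte markers -0.26 in KO and -0.30 in WT). In KO, where Dnmt3a and Ezh1 passed, erythroid and megakaryocyte markers also fell for 4 of 4 (median -1.45) and NK and gamma delta T cell markers for 5 of 6 (median -1.02), against 1 of 4 and 2 of 6 in WT. Granulocyte markers fell for 1 and rose for 3 of 8 in KO, and fell for 6 and rose for 2 of 8 in WT (median -1.20). The mean of the thymic stroma markers lay between 8.50 and 8.93 on all arrays, but single ones passed: 2 of 7 were higher in KO in untreated and again in irradiated thymocytes, and with irradiation 3 rose and 2 fell in KO and 1 rose and 2 fell in WT.

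In WT tumours the thymocyte markers had 10.66 to 12.27 in Notch and 11.78 to 12.24 in ENU tumours, against 12.84 to 12.87 in WT untreated thymocytes, with 2 and 1 of 11 lower. Granulocyte markers were lower for 5 of 8 in each, with medians of -1.81 in Notch and -1.94 in ENU tumours. B cell markers had medians of -1.06 and -1.65 with 0 of 6 past the test. Of 6 NK and gamma delta T cell markers tested, 1 was higher and 1 lower in ENU tumours, and 1 was lower in Notch tumours. Of 8 macrophage and dendritic cell markers, 1 was higher in ENU tumours and 2 were lower in Notch tumours. Both tumour comparisons use the same WT untreated arrays.

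Ezh2, the main catalytic subunit of PRC2, was nearly level in thymocytes. Its log2 signal was 12.06, 12.17 and 12.01 in irradiated KO and 12.16, 12.28 and 12.31 in irradiated WT thymocytes, and 11.83 and 11.93 in untreated KO and 12.06 and 12.06 in untreated WT thymocytes. Irradiated arrays lay above the untreated ones in each genotype without overlap, but the differences of 0.20 ± 0.10 in KO (log2 difference ± SE, adjusted p = 0.113) and 0.19 ± 0.10 in WT (adjusted p = 0.152) did not pass. KO against WT gave -0.18 ± 0.11 in untreated thymocytes (adjusted p = 0.353, 95% interval -0.41 to 0.05) and -0.17 ± 0.09 in irradiated ones (adjusted p = 0.263). All 21 Ezh2 probe sets were lower in KO than in WT, in untreated and irradiated thymocytes and in both tumour kinds. In irradiated thymocytes 1 of them passed, where 7.34% of all probe sets did, and in the other comparisons of KO with WT 0 passed.

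In tumours the spread of Ezh2 lay in the arrays labelled KO. KO Notch tumours had 12.08 and 10.90 and WT Notch tumours 12.50 and 12.35. KO ENU tumours had 11.56, 12.19 and 12.12 and WT ENU tumours 12.38, 12.43 and 12.36. Every KO tumour lay below every WT tumour of its kind, and the lowest KO arrays were KO Notch tumour 2 and KO ENU tumour 1, the arrays with the lowest cycling cell genes. The difference of -0.94 ± 0.36 in Notch tumours did not pass (adjusted p = 0.806), and without KO Notch tumour 2 it was -0.35 (adjusted p = 0.996). With KO Notch tumour 2 as the lone KO array it was -1.53 (adjusted p = 0.0159). Wherever 1 array is left in a group, the spread comes from the other groups and the lone array is assumed to vary like them, so this p rests on a single array that stands apart. In ENU tumours it was -0.43 ± 0.29 (adjusted p = 0.448). WT tumours against WT untreated thymocytes gave 0.36 ± 0.27 for Notch tumours (adjusted p = 0.439) and 0.33 ± 0.25 for ENU tumours (adjusted p = 0.398), neither past the test. Of the 8 group means, in order, only those of WT ENU tumours and irradiated WT thymocytes had no overlap between neighbours.

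Ezh1, the second catalytic subunit of PRC2, fell in WT ENU tumours. Its signal there was 9.49, 9.30 and 9.19, against 10.25 and 10.15 in WT untreated thymocytes. The groups did not overlap and the difference was -0.87 ± 0.12, or 1.83-fold lower (adjusted p = 0.000387), with 15 of 21 probe sets tested lower and 0 higher (17.7% of all probe sets were called). This call held under all 31 alternatives. WT Notch tumours had 10.09 and 10.02, and their difference from WT untreated thymocytes, -0.14 ± 0.14, did not pass (adjusted p = 0.553).

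Between tumour kinds, Ezh1 was 0.73 ± 0.15 higher in WT Notch than in WT ENU tumours, without overlap, but did not pass when fitted on the tumour arrays (adjusted p = 0.321). It passed with all 20 arrays in 1 fit (adjusted p = 0.00928) and with arrays weighted by quality (adjusted p = 0.0467). KO Notch tumours had 10.01 and 10.23 and KO ENU tumours 9.76, 9.69 and 9.57, a difference of 0.45 ± 0.15 (adjusted p = 0.593). KO ENU tumours all lay above WT ENU tumours, by 0.35 ± 0.13 (adjusted p = 0.363).

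Ezh1 was higher in irradiated than in untreated KO thymocytes. Irradiated KO thymocytes had 10.42, 10.56 and 10.54 and untreated KO thymocytes 9.997 and 10.20, a rise of 0.41 ± 0.11 (1.33-fold, adjusted p = 0.00872). Without untreated KO array 1 it was 0.30 and did not pass (adjusted p = 0.158). In WT thymocytes the irradiated arrays had 10.27, 10.55 and 10.30 and the untreated ones 10.25 and 10.15, a difference of 0.17 ± 0.11 that did not pass (adjusted p = 0.232). Of 21 probe sets tested, 8 rose and 0 fell in KO (25.7% of all probe sets called) and 4 rose and 0 fell in WT (20.4% called). The difference between the genotypes' responses, 0.23 ± 0.16, did not pass (adjusted p = 0.612). Ordered by mean, Ezh1 had gaps between neighbours below irradiated WT thymocytes, below WT Notch tumours and below KO ENU tumours.

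Suz12, the subunit without which PRC2 is not stable, was the member that was lower in irradiated KO than in irradiated WT thymocytes. Irradiated KO thymocytes had 11.25, 11.38 and 11.23, and irradiated WT thymocytes 11.49, 11.73 and 11.63. The groups did not overlap and the difference was -0.33 ± 0.10 (1.25-fold lower, adjusted p = 0.0281). In KO against WT untreated thymocytes the arrays overlapped, with 11.39 and 11.49 against 11.47 and 11.29, and the difference was 0.06 ± 0.12 (adjusted p = 0.837).

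Single arrays decided this call. It was lost without irradiated WT array 2 (-0.27, adjusted p = 0.0935) or 3 (-0.32, adjusted p = 0.0723), and without irradiated KO array 1 (-0.31, adjusted p = 0.0862) or 3 (-0.30, adjusted p = 0.109). It was also lost with all 20 arrays in 1 fit (adjusted p = 0.573) or with only the groups compared (adjusted p = 0.068). All 16 Suz12 probe sets were lower in irradiated KO thymocytes, with a median of -0.33, but 0 passed on its own (7.34% of all probe sets did). Irradiated against untreated thymocytes differed by -0.15 ± 0.11 in KO (adjusted p = 0.27) and 0.24 ± 0.11 in WT (adjusted p = 0.0945). The WT difference passed without irradiated WT array 1 (0.30, adjusted p = 0.0446). The difference between these responses, -0.39 ± 0.15, did not pass (adjusted p = 0.257).

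In tumours Suz12 had 11.53 and 11.01 in KO Notch and 11.73 and 11.59 in WT Notch tumours, and 11.13, 11.37 and 11.55 in KO ENU and 11.77, 11.65 and 11.96 in WT ENU tumours. KO tumours were lower without overlap in both kinds, and neither difference passed (-0.39 ± 0.22, adjusted p = 0.807, and -0.44 ± 0.18, adjusted p = 0.363). Without KO Notch tumour 2 the first was -0.13 (adjusted p = 0.996). WT ENU tumours were 0.41 ± 0.16 above WT untreated thymocytes (adjusted p = 0.0808), and this passed when KO Notch tumour 1 or 2, which are in the fit but not in the comparison, was left out (adjusted p = 0.0318 and 0.0316). Neighbouring group means of Suz12 overlapped throughout.

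Eed, the subunit that binds the methylated histone PRC2 has made, varied least, over a range of 0.77 on 20 arrays, smaller than that of most genes (40.3% had a smaller one). Irradiated KO thymocytes had 10.39, 10.30 and 10.24 and irradiated WT thymocytes 10.05, 10.15 and 10.01. The groups did not overlap, but the difference of 0.24 ± 0.09 missed the threshold (adjusted p = 0.0709). It passed without irradiated WT array 2 (0.28, adjusted p = 0.0422). Eed thus stood higher and Suz12 lower in irradiated KO thymocytes, of which Suz12 alone passed. Among 12 probe sets of Eed 11 were higher and 1 of them, number 6, passed (0.80 ± 0.22, adjusted p = 0.0478), where 7.34% of all probe sets did. The other comparisons of Eed had adjusted p-values from 0.368 to 0.997, and its tumour arrays ran from 9.61 (KO ENU tumour 1) to 10.30 (KO Notch tumour 1).

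Bmi1, the PRC1 subunit that stimulates its ubiquitin ligase, rose in WT tumours. WT Notch tumours had 10.44 and 10.27 and WT ENU tumours 10.21, 10.28 and 9.83, against 9.66 and 9.52 in WT untreated thymocytes. Neither tumour group overlapped the thymocytes, and the rises were 0.77 ± 0.17 for Notch tumours (1.70-fold, adjusted p = 0.0147) and 0.52 ± 0.15 for ENU tumours (1.44-fold, adjusted p = 0.0268). KO tumours had like levels, 10.28 and 9.996 in KO Notch and 9.83, 10.05 and 10.30 in KO ENU tumours, and did not differ past the test from WT (adjusted p = 0.897 and 0.881, 95% intervals -0.72 to 0.29 and -0.46 to 0.36).

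The rises in Bmi1 depended on few arrays. For Notch tumours the call was lost without WT Notch tumour 1 (0.68, adjusted p = 0.137), WT untreated array 1 (0.83, adjusted p = 0.0978) or WT untreated array 2 (0.70, adjusted p = 0.118). For ENU tumours it was lost without WT ENU tumour 1 (0.47, adjusted p = 0.0703) or 2 (0.44, adjusted p = 0.0842), or WT untreated array 1 (0.59, adjusted p = 0.0993) or 2 (0.45, adjusted p = 0.19). The difference kept its sign throughout. Of 6 probe sets 1 passed in Notch tumours (5.23% of all probe sets) and 2 in ENU tumours (17.7%).

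Irradiation lowered Bmi1 in WT thymocytes. The irradiated WT arrays had 9.24, 9.35 and 9.27, against 9.66 and 9.52 in untreated WT thymocytes, a fall of 0.30 on the log2 scale (difference -0.30 ± 0.10, adjusted p = 0.0276). Irradiated KO thymocytes had 9.25, 9.42 and 9.32 and untreated KO thymocytes 9.63 and 9.49, a difference of -0.23 ± 0.10 that did not pass (adjusted p = 0.0811). The difference between the genotypes' responses did not pass for Bmi1, nor for any other member. The WT call was lost without irradiated WT array 1 (-0.28, adjusted p = 0.0563) or 3 (-0.30, adjusted p = 0.0662), or untreated WT array 1 (-0.24, adjusted p = 0.262) or 2 (-0.37, adjusted p = 0.0546).

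The probe sets of Bmi1 did not move together. Probe sets 4 and 6 fell in irradiated WT thymocytes by -0.86 ± 0.14 (adjusted p = 0.00208) and -0.96 ± 0.19 (adjusted p = 0.0055), and in irradiated KO thymocytes by -0.83 ± 0.14 (adjusted p = 0.00202) and -1.09 ± 0.19 (adjusted p = 0.0023). Probe set 2 had 0.36 ± 0.14 in WT (adjusted p = 0.0856) and 0.17 ± 0.14 in KO (adjusted p = 0.396), and number 3 had -0.18 and -0.12, none of them past the test. Probe set 1 had opposite signs, -0.31 ± 0.34 in WT (adjusted p = 0.552) and 0.72 ± 0.34 in KO (adjusted p = 0.142), and number 5 was not tested. The gene value of Bmi1 thus stands between probe sets that fell and others that did not. Their positions in the transcript were not used here. Ordered by mean, the 4 tumour groups lay above the 4 thymocyte groups, with gaps between KO ENU tumours and WT untreated thymocytes and between untreated and irradiated KO thymocytes.

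**Figure D2:**
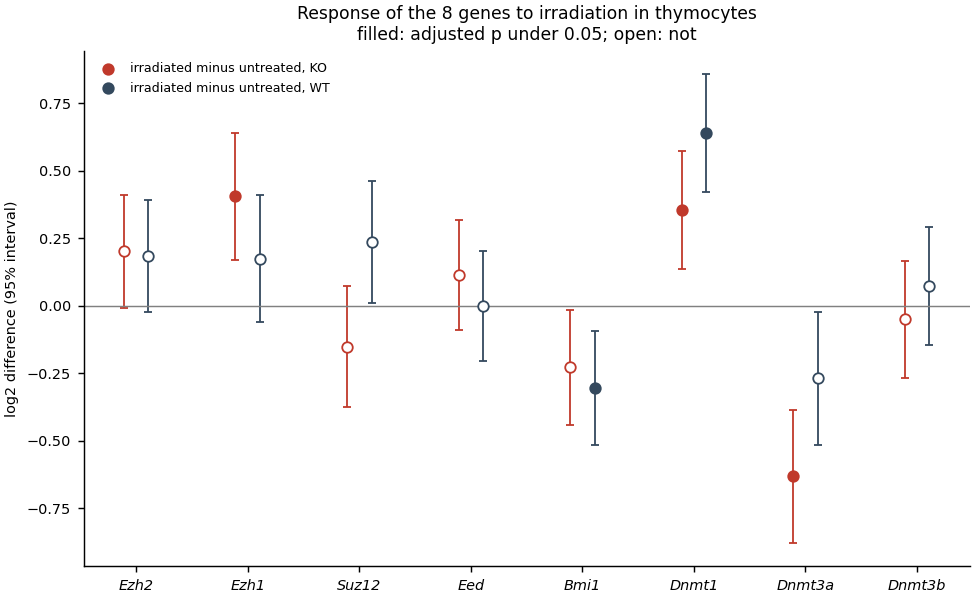
Log2 difference of irradiated minus untreated thymocytes (vertical axis) for the 8 genes, KO in red beside WT in blue, with 95% intervals from limma and filled points where the adjusted p is under 0.05. Dnmt1 passed in both genotypes, Dnmt3a and Ezh1 in KO, and Bmi1 in WT. The difference between the genotypes' responses passed for no member.

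Dnmt1, the maintenance methyltransferase, was higher in irradiated than in untreated thymocytes, and in WT tumours than in WT untreated thymocytes. Its signal was 11.33, 11.31 and 11.30 in irradiated KO thymocytes against 10.92 and 10.99 in untreated KO thymocytes, and 11.33, 11.47 and 11.63 in irradiated WT thymocytes against 10.87 and 10.81 in untreated WT thymocytes. The groups did not overlap in either genotype. The rise was 0.36 ± 0.10 in KO (1.28-fold, adjusted p = 0.0124) and 0.64 ± 0.10 in WT (1.56-fold, adjusted p = 0.000184). The difference between them, -0.28 ± 0.15, did not pass (adjusted p = 0.445).

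Dnmt1 probe sets moved mostly one way. Of 40 probe sets 14 rose and 0 fell in KO (25.7% of all probe sets called). In WT, where all 40 had a positive difference, 26 rose and 0 fell (20.4% called). In KO, probe sets 18 to 25 had differences between 0.06 and 0.16 while numbers 9 to 15 had 0.34 to 0.65. The KO call was lost without untreated KO array 1 (0.32, adjusted p = 0.121) or 2 (0.39, adjusted p = 0.0604). The WT call held without any single array and was lost with all 20 arrays in 1 fit (adjusted p = 0.139), as was the KO call (adjusted p = 0.38).

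In WT tumours Dnmt1 had 11.85 and 11.76 in Notch tumours and 11.90, 11.94 and 12.07 in ENU tumours. Both groups lay above all thymocyte arrays. Against WT untreated thymocytes the rise was 0.97 ± 0.25 for Notch tumours (1.95-fold, adjusted p = 0.0319) and 1.13 ± 0.23 for ENU tumours (2.19-fold, adjusted p = 0.00398). In ENU tumours 33 of 40 probe sets rose and 0 fell (17.7% of all probe sets called), and in Notch tumours 11 rose and 0 fell (5.23% called). The ENU call held under all 31 alternatives. The Notch call was lost without WT Notch tumour 1 (0.92, adjusted p = 0.192) or 2 (1.01, adjusted p = 0.0795), or WT untreated array 1 (1.00, adjusted p = 0.182) or 2 (0.94, adjusted p = 0.159).

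KO tumours were split for Dnmt1. KO Notch tumours had 11.75 and 10.76, and KO ENU tumours 11.18, 11.87 and 11.82. The low values are again KO Notch tumour 2 and KO ENU tumour 1, and the other KO tumours lay just below the WT tumours of their kind. KO against WT gave -0.55 ± 0.33 in Notch tumours (adjusted p = 0.828), which was -0.05 without KO Notch tumour 2, and -0.34 ± 0.27 in ENU tumours (adjusted p = 0.502). Ordered by mean, gaps lay below WT ENU tumours, below irradiated WT thymocytes and below untreated KO thymocytes.

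Dnmt3a, a de novo methyltransferase with known roles in blood stem cells and T cells, was lower in irradiated than in untreated KO thymocytes. These groups also differed in their Gfi1 probe sets. Irradiated KO thymocytes had 9.29, 9.44 and 9.51 and untreated KO thymocytes 10.01 and 10.07. The groups did not overlap and the difference was -0.63 ± 0.12 (1.55-fold lower, adjusted p = 0.000486). Of 23 probe sets tested 16 were lower and 0 higher (25.7% of all probe sets called). The call held without any single array and was lost with all 20 arrays in 1 fit (adjusted p = 0.143).

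In WT thymocytes Dnmt3a moved less. Irradiated WT thymocytes had 9.37, 9.76 and 9.60 and untreated WT thymocytes 9.90 and 9.80, also without overlap. The difference of -0.27 ± 0.12 did not pass (adjusted p = 0.084), though it did without irradiated WT array 2 (-0.36, adjusted p = 0.0217). Of 23 probe sets 3 were lower and 1, number 8, was higher (0.67 ± 0.20, adjusted p = 0.0364), where 20.4% of all probe sets were called. The difference between the genotypes' responses was -0.36 ± 0.16 and did not pass (adjusted p = 0.365). KO against WT gave 0.20 ± 0.13 in untreated (adjusted p = 0.408) and -0.17 ± 0.10 in irradiated thymocytes (adjusted p = 0.365).

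In tumours Dnmt3a had 10.12 and 8.93 in KO Notch and 10.36 and 10.13 in WT Notch tumours, and 9.65, 10.07 and 10.03 in KO ENU and 10.08, 9.88 and 10.05 in WT ENU tumours. KO Notch tumour 2 was the lowest of the 20 arrays. KO against WT was -0.72 ± 0.34 in Notch tumours (adjusted p = 0.806). It was -0.12 without that array (adjusted p = 0.996) and -1.31 with it as the lone KO array (adjusted p = 0.0161, with the spread from other groups). Against KO ENU tumours, KO Notch tumours differed by -0.39 ± 0.31 (adjusted p = 0.87), by 0.21 without KO Notch tumour 2 (adjusted p = 0.71) and by -0.98 with it alone (adjusted p = 0.0436, with the spread from other groups). Ordered by mean, gaps lay below WT Notch tumours and below WT untreated thymocytes. WT tumours did not differ past the test from WT untreated thymocytes (0.39 ± 0.27, adjusted p = 0.395, in Notch tumours and 0.15 ± 0.25, adjusted p = 0.725, in ENU tumours).

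Dnmt3b, the other de novo methyltransferase, was dim in thymocytes and higher in WT ENU tumours. It lay above the 40th percentile of the array on 16 of 20 arrays, while the other 7 members did so on all. WT ENU tumours had 8.51, 8.54 and 9.10, against 7.96 and 7.89 in WT untreated thymocytes, a rise of 0.79 ± 0.20 (1.73-fold, adjusted p = 0.0144). The groups did not overlap, and 4 of 11 probe sets tested rose (17.7% of all probe sets called). The call was lost without WT ENU tumour 3 (0.60, adjusted p = 0.0555), or WT untreated array 1 (0.82, adjusted p = 0.0888) or 2 (0.76, adjusted p = 0.105), and with dim probe sets left out (0.61, adjusted p = 0.0523).

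WT Notch tumours had 8.59 and 8.45 for Dnmt3b, a difference of 0.60 ± 0.22 that did not pass (adjusted p = 0.119). KO ENU tumours had 8.56, 9.10 and 9.05, the highest mean of the 8 groups, and KO Notch tumours 8.48 and 7.86. In irradiated thymocytes it ran from 7.91 to 8.06 in KO and from 7.92 to 8.09 in WT. Irradiated against untreated thymocytes gave -0.05 ± 0.10 in KO (adjusted p = 0.715) and 0.07 ± 0.10 in WT (adjusted p = 0.61), neither past the test. Only 7 of its 16 probe sets passed the filter in thymocytes. Neighbouring group means of Dnmt3b overlapped throughout.

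**Figure D3:**
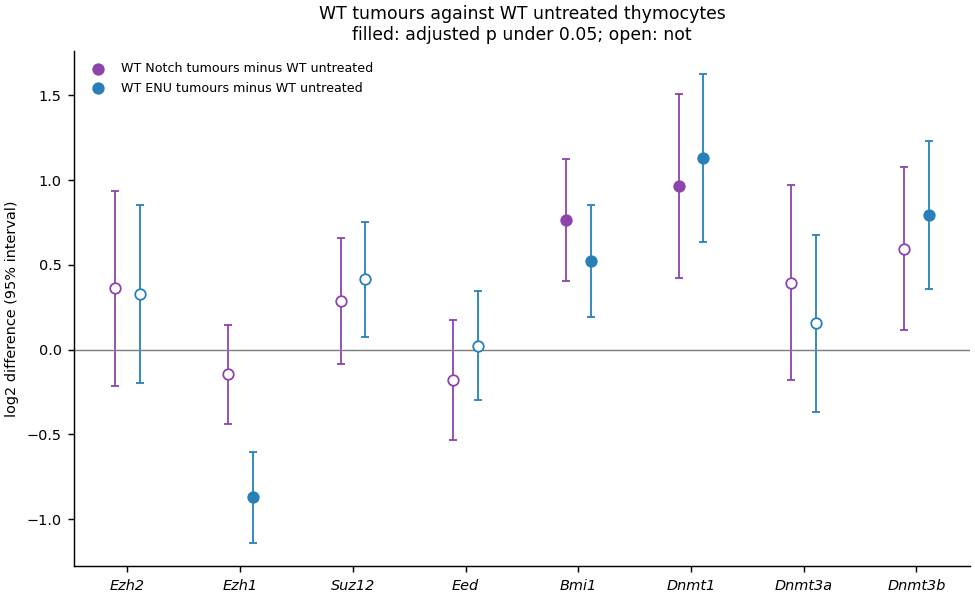
Log2 difference of WT tumours minus WT untreated thymocytes (vertical axis) for the 8 genes, Notch tumours in purple beside ENU tumours in blue, with 95% intervals from limma and filled points where the adjusted p is under 0.05. Dnmt1 and Bmi1 passed in both tumour kinds, Dnmt3b and Ezh1 in ENU tumours, with Ezh1 as the only member lower.

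**Figure D4:**
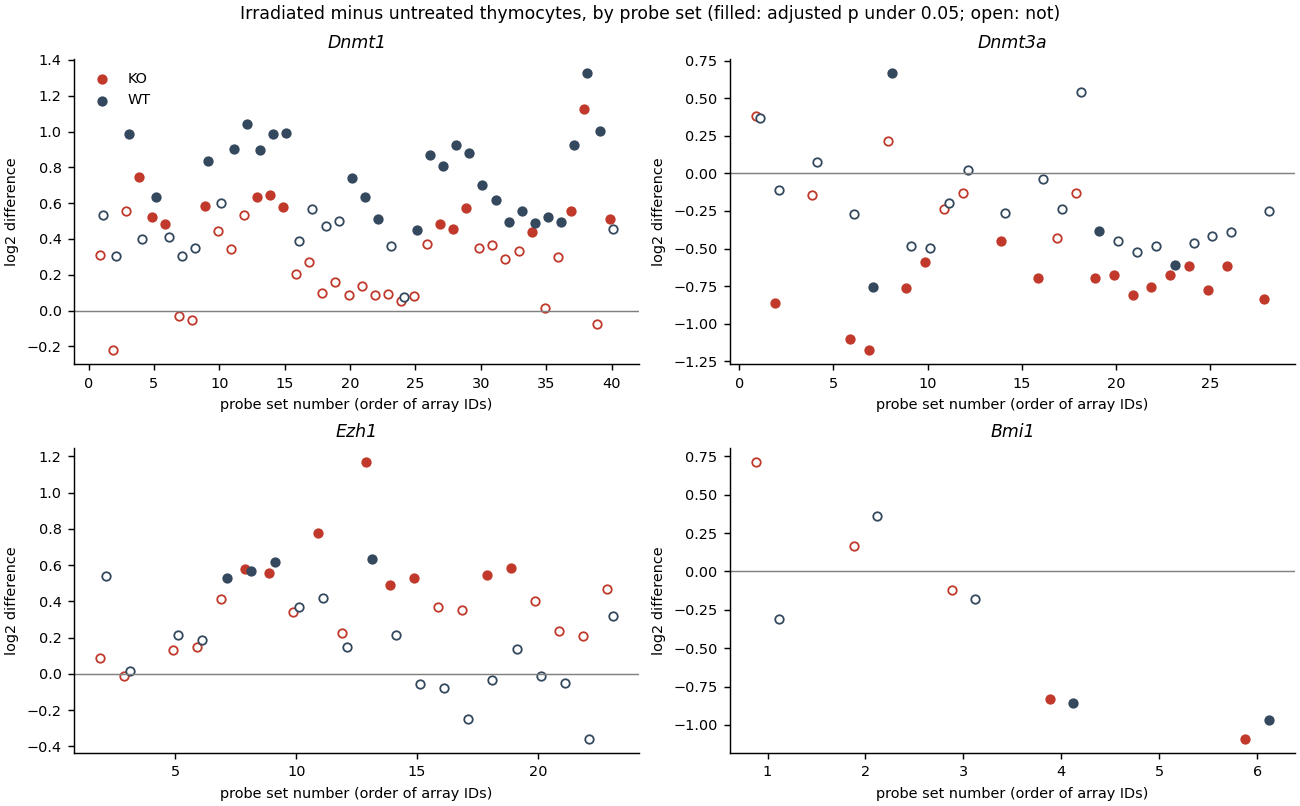
Log2 difference of irradiated minus untreated thymocytes (vertical axes) for each tested probe set of Dnmt1, Dnmt3a, Ezh1 and Bmi1 (horizontal axes, in the order of array IDs), KO in red and WT in blue, filled where the adjusted p over all probe sets is under 0.05. Filled points of Dnmt1 and Ezh1 lie above 0, those of Dnmt3a mostly below it, and those of Bmi1 are probe sets 4 and 6 alone.

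All 10 listed partners of PRC2 were tested. The shares of all genes called, against which their counts stand, were 12.3% and 14.9% for KO against WT in untreated and irradiated thymocytes and 38.8% and 34.6% for irradiation in KO and WT. In untreated thymocytes 1 was higher in KO, Aebp2, a PRC2 cofactor that binds DNA, by 0.53 ± 0.11 (adjusted p = 0.00392), and it was also higher in irradiated KO thymocytes, by 0.43 ± 0.09 (adjusted p = 0.00342). Phf19, a Polycomb-like protein that guides PRC2 to chromatin, was the 1 that was lower in irradiated KO thymocytes (-0.58 ± 0.09, adjusted p = 0.000111). With irradiation 1 rose and 2 fell in KO thymocytes, Kdm6a, a histone demethylase that removes the PRC2 mark (0.30 ± 0.11, adjusted p = 0.0411), Phf19 (-0.53 ± 0.10, adjusted p = 0.000494) and the histone binding protein Rbbp4 (-0.32 ± 0.11, adjusted p = 0.0252), and 0 passed in WT thymocytes. The medians were -0.09 in KO and 0.03 in WT, against -0.02 for all genes in each. In WT ENU tumours against WT untreated thymocytes 3 rose, among them Phf19 (0.81 ± 0.19, adjusted p = 0.00999) and Rbbp7 (0.69 ± 0.19, adjusted p = 0.0197), and Phf1, a relative of Phf19, fell (-0.66 ± 0.22, adjusted p = 0.0443). The median was 0.19 against 0.01 for all genes, of which 20.1% were called. In WT Notch tumours against WT untreated thymocytes, in KO against WT tumours of either kind and in Notch against ENU tumours 0 of 10 passed. Kdm6b, the other demethylase of this mark, did not pass in any of these comparisons.

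Among 21 PRC1 partners tested, 4 rose and 0 fell with irradiation in KO thymocytes, where 1925 of 12747 genes rose and 3021 fell. In WT thymocytes 5 rose and 0 fell, where 1651 genes rose and 2762 fell. The partners had medians of 0.16 and 0.14 against -0.02 for all genes in each. Kdm2b, which brings PRC1 to unmethylated CpG islands, had 10.86, 11.05 and 11.10 in irradiated KO against 9.70 and 9.61 in untreated KO thymocytes, and 10.41, 10.70 and 10.57 in irradiated WT against 9.55 and 9.46 in untreated WT thymocytes. These rises, 1.35 ± 0.11 in KO (adjusted p = 1.64e-07) and 1.05 ± 0.11 in WT (adjusted p = 2.41e-06), were larger than any member's change after irradiation. Cbx2, a chromodomain subunit, rose by 0.64 ± 0.10 in KO (adjusted p = 8.44e-05) and 0.72 ± 0.10 in WT (adjusted p = 3.36e-05), and Pcgf5, a relative of Bmi1, by 0.55 ± 0.13 (adjusted p = 0.0039) and 0.38 ± 0.13 (adjusted p = 0.0346). Cbx7, another chromodomain subunit, rose in KO by 0.54 ± 0.11 (adjusted p = 0.00141). The ubiquitin ligases Ring1 and Rnf2 did not pass with irradiation (Ring1 -0.05 and -0.21, Rnf2 -0.10 and -0.07, in KO and WT).

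Between KO and WT untreated thymocytes 1 of 21 PRC1 partners was higher and 1 lower, where 12.3% of all genes were called. The higher was Asxl1 (0.48 ± 0.12, adjusted p = 0.0146), which acts with the enzyme that removes the PRC1 mark, and the lower was Cbx7 (-0.42 ± 0.13, adjusted p = 0.0361). Between KO and WT irradiated thymocytes (14.9% of genes called) 3 were higher, Kdm2b (0.44 ± 0.10, adjusted p = 0.00444), Rybp (0.31 ± 0.09, adjusted p = 0.0249) and Asxl1 (0.33 ± 0.10, adjusted p = 0.033), and L3mbtl2 was lower (-0.45 ± 0.11, adjusted p = 0.0106). In WT ENU tumours against WT untreated thymocytes 4 of 22 rose and 1 fell (20.1% of genes called), with Yaf2 at 0.99 ± 0.20 (adjusted p = 0.004) and Ring1 at -0.58 ± 0.11 (adjusted p = 0.00313). In WT Notch tumours (7.68% of genes called) 0 rose and 2 fell, Ring1 (-0.44 ± 0.12, adjusted p = 0.0425) and Pcgf5 (-1.34 ± 0.38, adjusted p = 0.0424). These counts of partners lay near the shares of all genes. Of single genes, Bmi1 rose and Ring1, a subunit of the same complex, fell in both tumour kinds. Between KO and WT tumours and between Notch and ENU tumours 0 of 22 passed.

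Of 14 DNA methylation partners tested, 2 rose and 1 fell with irradiation in KO thymocytes (38.8% of all genes were called), and 4 rose and 2 fell in WT thymocytes (34.6%), with medians of 0.02 and -0.05. Uhrf1, which brings Dnmt1 to newly replicated DNA, had 10.81, 11.01 and 10.70 in irradiated WT against 10.30 and 10.25 in untreated WT thymocytes, a rise of 0.56 ± 0.11 (adjusted p = 0.000932). In KO thymocytes it had 10.37, 10.48 and 10.56 after irradiation against 10.25 and 10.41 in untreated ones, and did not pass (0.14 ± 0.11, adjusted p = 0.319). It was lower in irradiated KO than in irradiated WT thymocytes (-0.36 ± 0.10, adjusted p = 0.0173). Hells, a chromatin remodeller needed for normal DNA methylation, rose by 0.52 ± 0.13 in KO (adjusted p = 0.00485) and 0.63 ± 0.13 in WT (adjusted p = 0.00152). Usp7, an enzyme that protects Dnmt1 and Uhrf1 from degradation, fell by -0.57 ± 0.11 in KO (adjusted p = 0.000564) and -0.42 ± 0.11 in WT (adjusted p = 0.00589).

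Tet3 and Tet2, which oxidise methylcytosine, rose in WT by 0.35 (adjusted p = 0.0196) and 0.39 (adjusted p = 0.0349). Mbd4, a DNA glycosylase, was lower in KO, by -0.68 ± 0.12 in untreated (adjusted p = 0.00101) and -0.44 ± 0.10 in irradiated thymocytes (adjusted p = 0.00502). Tet1, of the same family as Tet2, was lower in irradiated KO thymocytes (-0.40 ± 0.12, adjusted p = 0.0311). In all, 0 of 14 were higher and 2 lower in KO untreated thymocytes (12.3% of all genes called), and 0 higher and 3 lower in KO irradiated ones (14.9% called). In WT ENU tumours against WT untreated thymocytes Hells rose by 1.62 ± 0.45 (adjusted p = 0.021) and the methyl-CpG binding protein Mbd2 fell by -0.71 ± 0.15 (adjusted p = 0.00377), 1 in each direction of 15 tested, where 20.1% of all genes were called. In WT Notch tumours Mbd2 alone passed (-0.60 ± 0.16, adjusted p = 0.0324), with Hells, which did not pass, at 1.26 ± 0.50 (adjusted p = 0.134). Between KO and WT tumours 0 of 15 passed, with Tet1 at -3.46 ± 1.13 in Notch tumours (adjusted p = 0.697). Tet1 had 6.85 and 6.86 in KO Notch tumours against 10.52 and 10.10 in WT Notch tumours, so both KO arrays were low, and ENU tumours had 7.48, 10.16 and 9.50 in KO and 10.24, 9.90 and 6.92 in WT.

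Cycling cell genes were also compared, since Dnmt1 and Ezh2 are known to be abundant in dividing cells. Their mean was 10.71 to 10.76 in irradiated KO and 10.95 to 11.10 in irradiated WT thymocytes, and 10.64 to 10.65 in untreated KO and 10.75 to 10.86 in untreated WT thymocytes. With irradiation 7 of 17 rose and 2 fell in KO, against 1925 and 3021 of 12747 genes, and 10 rose and 3 fell in WT, against 1651 and 2762 genes. The genes that rose include those of replication, E2f1 by 0.94 ± 0.11 in KO (adjusted p = 6.16e-06) and 0.96 ± 0.11 in WT (adjusted p = 6.22e-06), and Mcm5 by 0.65 ± 0.10 (adjusted p = 6.06e-05) and 0.78 ± 0.10 (adjusted p = 1.17e-05). The mitotic kinase gene Plk1 fell, by -1.60 ± 0.11 in KO (adjusted p = 4.09e-08) and -1.24 ± 0.11 in WT (adjusted p = 6.29e-07). In irradiated thymocytes 0 of 17 were higher and 7 lower in KO than in WT, with Tyms at -0.62 ± 0.10 (adjusted p = 0.000283), where 868 of 12747 genes were lower. In untreated thymocytes 0 were higher and 1 lower in KO, where 12.3% of all genes were called.

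In WT ENU tumours 6 of 17 cycling cell genes rose and 0 fell against WT untreated thymocytes, with a median of 0.90 against 0.01 for all genes, and the proliferation marker Mki67 rose by 1.31 ± 0.16 (adjusted p = 0.00016). In WT Notch tumours 1 rose, Mki67 (1.00 ± 0.18, adjusted p = 0.00518), with a median of 0.58. Of all genes 20.1% were called in WT ENU and 7.68% in WT Notch tumours. KO against WT tumours gave 0 of 17 past the test, with medians of -0.44 in Notch and -0.67 in ENU tumours. The mean of these genes was 11.50 in KO Notch tumour 1 and 10.30 in KO Notch tumour 2, against 11.31 and 11.37 in WT Notch tumours, so that the first KO array lay above both WT arrays. Across the 20 arrays the 2 lowest Ezh2 values were on the 2 arrays with the lowest cycling cell genes, the lowest Dnmt1 value was on the lowest of these, and the lowest Ezh1 values were on the WT ENU tumours, the arrays with the highest. Other arrays did not follow this order. KO Notch tumour 1 had 12.08 for Ezh2, below the 12.50 and 12.35 of the WT Notch tumours. Dnmt1 was 11.30 to 11.33 in irradiated KO and 10.81 to 10.87 in untreated WT thymocytes. The cycling cell genes there had 10.71 to 10.76 and 10.75 to 10.86. Ezh1 had its highest group means in irradiated KO and WT thymocytes, where more cycling cell genes rose than fell. The part of cell cycle differences in the members' values was not tested.

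**Figure D5:**
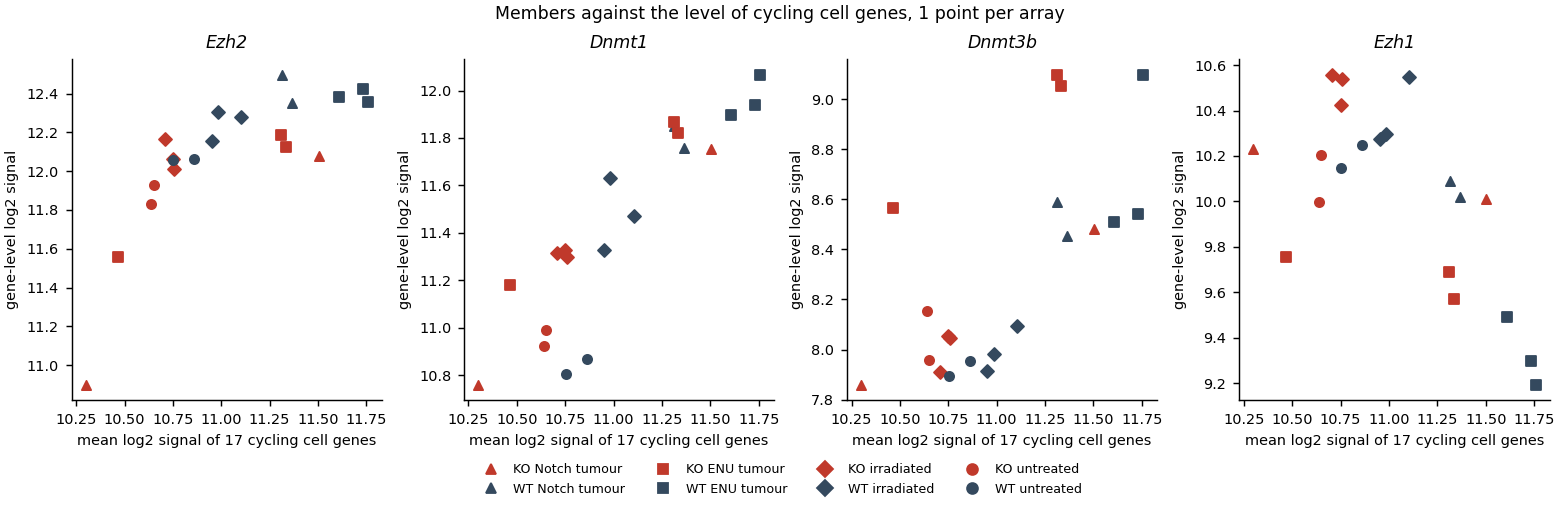
Gene-level log2 signal of Ezh2, Dnmt1, Dnmt3b and Ezh1 (vertical axes) against the mean log2 signal of 17 cycling cell genes (horizontal axes), 1 point per array, KO in red and WT in blue, with a marker shape for each setting. WT ENU tumours, at 11.61 to 11.76 on the horizontal axis, have the lowest Ezh1 and the highest Dnmt1. KO Notch tumour 2, at 10.30, has the lowest Ezh2 and Dnmt1. KO Notch tumour 1, at 11.50, has less Ezh2 than both WT Notch tumours.

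Of 15 loci known as Polycomb targets, all found, 5 passed the filter in thymocytes and 8 in tumours, and the others have no test there. The tumour suppressor locus Cdkn2a, the best known target of EZH2 and BMI1, was not tested in thymocytes, and in WT ENU tumours against WT untreated thymocytes its 0.67 ± 0.35 did not pass (adjusted p = 0.192). Igf2bp3, a fetal RNA binding protein gene, had 9.45 and 9.33 in untreated KO against 8.24 and 8.18 in untreated WT thymocytes (1.18 ± 0.14, adjusted p = 1.59e-05). In irradiated thymocytes it had 9.28, 9.46 and 9.38 in KO and 8.83, 9.33 and 8.94 in WT. It rose with irradiation in WT by 0.83 ± 0.13 (adjusted p = 0.000126), as did Cdkn1c by 0.33 ± 0.10 (adjusted p = 0.0185), while 0 of 5 passed in KO. In WT ENU tumours Hoxa7 fell (-0.53 ± 0.13, adjusted p = 0.00999), the only 1 of 8 tested to pass, and 0 passed in WT Notch tumours or between KO and WT irradiated thymocytes or tumours.

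Over the 8 group means, the members followed one another to different degrees, given here as a description over means that share arrays and cell composition. Ezh2 and Suz12 had a Pearson r of 0.812, Bmi1 and Dnmt3b 0.743, and Ezh1 and Dnmt3b -0.843. The gene with the highest r to Dnmt1 was Birc6 (0.986), followed by Mapk1ip1l (0.981) and the DNA ligase gene Lig1 (0.979). The highest were Zik1 for Ezh2 (0.987), Fam148b for Ezh1 (0.992), Cand1 for Suz12 (0.967), Uap1 for Eed (0.966), B230217C12Rik for Bmi1 (0.986), Dcun1d2 for Dnmt3a (0.974), and Atp8a2 and Sema4c for Dnmt3b (0.989 each). Each is the highest of 13520 genes over 8 points, where high values arise readily.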

How the data were processed

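The deposited table holds 182058 probe sets on 20 mouse arrays, and values between 3.37 and 15.01 were read as log2 signal made by the authors, a reading that rests on the values. How the authors corrected background, normalized and summarised them, and in which log base, the sources used here do not state. Array medians ran from 9.08 to 9.27. RNA was amplified with NuGEN Ovation Pico, per the labels' protocols. No batch, slide or scan date is given. Gene names come from the platform annotation: of the probe sets, those naming 1 gene (167016) were used, and 3388 naming several and 11654 naming none were left out.

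A gene's value is the median of its probe sets, each centred on its mean over 20 arrays, plus the mean of those means. A gene was tested where at least 2 arrays of the fit had it above their 40th percentile. Tests used limma 3.58.1 (lmFit and eBayes, R 4.3.3), with Benjamini-Hochberg adjustment over all genes tested and a threshold of 0.05. Thymocyte comparisons were fitted on 10 thymocyte arrays, tumour comparisons on 10 tumour arrays, and WT tumours against WT untreated thymocytes on all 20. Probe sets were fitted likewise. The fits were also run on simulated data, with independent noise for each gene and known changes added to some genes. That simulation held no outlying array and no mixture of cell types, so it cannot judge fits affected by these. The number of arrays limits the precision, and intervals are at 95%.

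The members and lists were chosen with earlier results of these data known. Lists of PRC2 partners, PRC1 partners, DNA methylation partners, cycling cell genes, Polycomb repressed loci and markers of thymocytes and other cell types held 140 genes, of which 132 were found, 4 by an older symbol. Named are the 8 members, Gfi1, up to 4 genes per list and comparison with the smallest p past the threshold, a few fixed genes, and the genes most like each member. Replicate numbers were checked for pairing, which groups of 2 or 3 arrays are too small to exclude, and the main fits used none.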

Additional observations from a re-analysis of the deposited data

Results flagged for a closer look

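Igf2bp3, among the loci known as Polycomb targets, responded to irradiation differently in the 2 genotypes by a test of that difference itself (irradiated minus untreated, KO minus WT, -0.84 ± 0.18 on the log2 scale, adjusted p = 0.0205). It rose with irradiation in WT thymocytes and not past the test in KO thymocytes, where it was already higher untreated. The irradiated and untreated KO groups also differed in their Gfi1 probe sets, and the part of this was not tested. No member and no other gene of the Polycomb, DNA methylation and cycling lists was marked by such a test. Without KO Notch tumour 2 the KO against WT differences of Ezh2, Suz12, Dnmt1 and Dnmt3a in Notch tumours shrank, as given above.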

How the results depend on the processing

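Counts of members called are given here as called of 8. Further quantile normalization, the mean of probe sets or array weights gave 2 for KO against WT irradiated thymocytes (1 as reported), and all 20 arrays in 1 fit or only the groups compared gave 0. For irradiation in WT (2) leaving out dim probe sets, only the groups compared or the replicate block gave 1, all 20 arrays 0 and array weights 5. For irradiation in KO (3) all 20 arrays gave 0 and array weights 5. Notch against ENU tumours in WT (0) gave 1 with all 20 arrays or array weights, and the difference in irradiation response (0) gave 1 with array weights. Without single arrays the counts ran from 0 to 1 for KO against WT irradiated thymocytes, 1 to 3 for irradiation in either genotype, 2 to 5 for WT ENU and 0 to 2 for WT Notch tumours against thymocytes, 0 to 2 for KO against WT Notch tumours and 0 to 1 for Notch against ENU tumours in KO.

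Of the members' probe sets, WT Notch tumours against thymocytes (13) gave 20 with quantile normalization and 32 with only the groups compared. KO against WT untreated thymocytes (1) gave 0 with no filter, all 20 arrays or the replicate block and 4 with only the groups compared. KO against WT irradiated thymocytes (3) gave 1 with no filter and 0 with a stricter filter or all 20 arrays. With all 20 arrays the others were 1 for KO against WT ENU tumours (0), 3 and 7 for irradiation in WT (39) and KO (43), and 9 and 3 for Notch against ENU tumours in WT and KO (0 each). The replicate block gave 28 for irradiation in KO. Without single arrays they ran from 0 to 1, 0 to 3, 9 to 47, 9 to 45, 16 to 65 and 0 to 36 for KO against WT untreated and irradiated thymocytes, irradiation in WT and KO, and WT ENU and Notch tumours against thymocytes. They ran from 0 to 32 for KO against WT Notch tumours, 0 to 9 for Notch against ENU tumours in KO and 0 to 1 for the difference in KO effect. The cause was not tested.

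Deviations of same-numbered arrays correlated between -0.456 and 0.201 in thymocytes and -0.264 and 0.137 in tumours. In groups of 2 arrays both deviations mirror each other, so this check cannot exclude pairing. Among 2230 member differences under the alternatives 49 changed sign, all called in neither fit. Signal over background limits Dnmt3b in thymocytes, which could not be tested with dim probe sets left out or a stricter filter.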
